A study of Mus musculus with 3 samples.

Results

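The genes described are the triggering receptors expressed on myeloid cells (Trem1, Trem2, Trem3, Treml2 and Treml4), Tyrobp, and Gpnmb, a membrane glycoprotein gene. Tyrobp encodes a signalling adaptor with which most TREM receptors pair. The 7 genes were taken by symbol from the 55536 annotated genes, and each symbol had 1 gene in all 3 libraries. The libraries hold RNA bound to chromatin, sequenced after ribosomal RNA depletion, from primary macrophages derived from the bone marrow of mice of the C57BL/6J strain. All cells were exposed for 12 h to 100 ng/ml Lipid A, the lipopolysaccharide moiety sensed by TLR4, were washed and kept without it for another 12 h, and then met 100 ng/ml Lipid A once more for 15 min. The series has this 1 group of 3 libraries (replicates 1, 2 and 3), so no condition is compared with another. The labels give the age and sex of the animals as not collected and give 1 donor identifier for all 3 libraries, so the spread between libraries may be partly technical.

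TREM receptors are immunoglobulin-like proteins of the cell surface. Most have no signalling motif of their own and pair with DAP12, the product of Tyrobp, whose ITAM motif recruits the kinase SYK once SRC family kinases have phosphorylated it. TREM1 amplifies inflammatory responses, whereas TREM2 senses lipids and lipoproteins and is known in macrophages and microglia for phagocytosis and for restraining responses to Toll-like receptors. GPNMB is made by macrophages under lysosomal stress and lipid load, where transcription factors of the MITF and TFE family drive its gene. Chromatin-bound RNA includes RNA still being transcribed or spliced, so intron sequence is part of what such libraries measure.

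Several annotated transcripts of Trem2 and Gpnmb keep intron sequence, and the results below turn on them. The following stretches of 30 bases, from the GENCODE M21 transcripts (mm10, plus strand), show where a kept intron meets its exon and, below each, the same exon end joined to the next exon once that intron is removed. In the first kind, capitals mark the GT that opens an intron or the AG that closes it. In the joined kind, capitals mark the last base of one exon and the first base of the next.
Trem2-203, exon 1 into intron 1 (chr17:48346581-48346610): tgctgctgatcacagGTgggaccacaggag
Trem2-203, intron 1 into exon 2 (chr17:48348442-48348471): ctgtctcctctgcAGccctgtcccaagccc
Trem2-201, exon 1 joined to exon 2 (chr17:48346581-48346595 and chr17:48348457-48348471): tgctgctgatcacaGCcctgtcccaagccc
Gpnmb-205, exon 1 into intron 1 (chr6:49036778-49036807): tccaggctgccaagcGTgagtcccgtcctc
Gpnmb-201, exon 1 joined to exon 2 (chr6:49036778-49036792 and chr6:49042767-49042781): tccaggctgccaagCGatttcgtgatgtgc
Gpnmb-204, exon 6 into intron 6 (chr6:49048087-49048116): ctagcccctctttaaGTgagtatttcttga
Gpnmb-201, exon 6 joined to exon 7 (chr6:49048087-49048101 and chr6:49050410-49050424): ctagcccctctttaATgcctactggttaca

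Depth was 14609979, 17423948 and 24162551 expected counts in replicates 1, 2 and 3, from 1000, 250 and 500 ng of starting RNA. The libraries differed far beyond counting noise, with chi-square statistics per degree of freedom of 30.3 (replicates 1 and 2), 38.0 (1 and 3) and 17.4 (2 and 3), so no library was a copy of another. All 8 macrophage markers examined averaged at least 1 TPM (a length-scaled share of the transcripts in a library), from 35.4 ± 6.98 for Itgam to 330 ± 55.6 for Adgre1 (SD, n = 3). No neutrophil, B cell, T and NK cell or melanocyte marker reached a mean of 1 TPM, and 1 of 8 osteoclast, 1 of 6 dendritic cell and 3 of 4 megakaryocyte markers did. In the read-based table, a separate quantification of the same libraries, 3 of 10 neutrophil, 1 of 5 B cell, 2 of 7 T and NK cell, 1 of 5 melanocyte, 4 of 8 osteoclast, 3 of 6 dendritic cell and 3 of 4 megakaryocyte markers did. The highest of the lymphocyte and melanocyte markers there were Cd3d at 15.2 ± 2.43 TPM and Dct at 3.43 ± 0.325 TPM.

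The 7 genes covered the whole range of chromatin RNA levels. Gpnmb ranked 9 among 22028 protein-coding genes, Trem2 and Tyrobp lay between 22.3 and 61.2 TPM in every library, Treml2 was lower, and Treml4, Trem1 and Trem3 had a few counts or none. A mean of at least 1 TPM was reached by 4 of the 7, against 48.4% of protein-coding genes, whose median among those that reached it was 11.7 TPM. The same 4 genes had a mean expected count of at least 10, the limit used here for a detected gene. In bulk RNA such as this, fewer cells with a transcript and less of it per cell cannot be told apart.

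**Figure D1:**
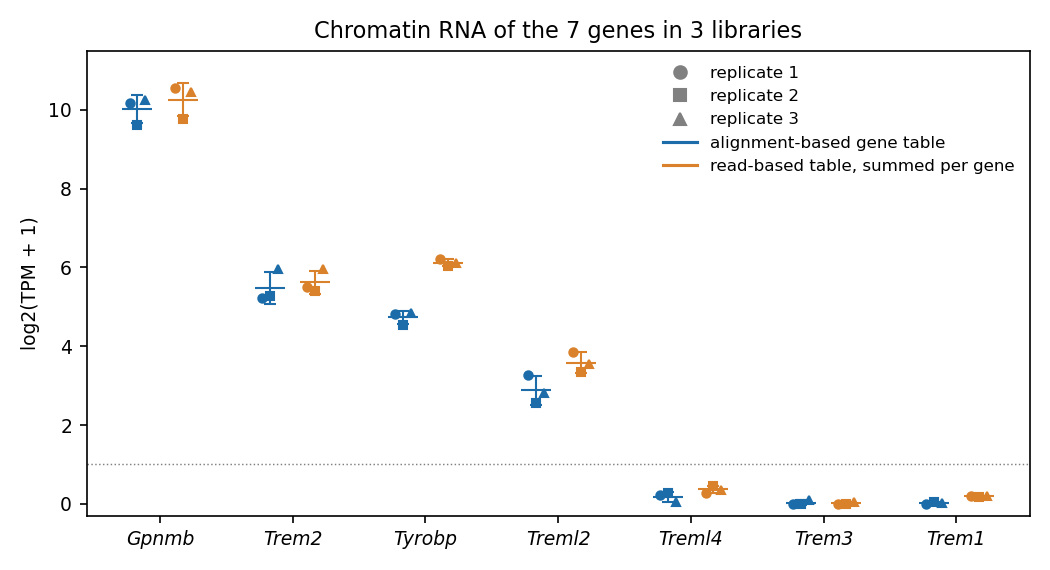
Level of each of the 7 genes as log2(TPM + 1), in the alignment-based gene table (blue) and the read-based table (orange); points are replicates 1, 2 and 3, horizontal bars the mean, error bars the SD (n = 3), and the dotted line 1 TPM. Gpnmb lies far above the others, Trem2 and Tyrobp change places between the tables, and Treml4, Trem3 and Trem1 lie near 0.

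Gpnmb (ENSMUSG00000029816.10, chromosome 6, 49036546 to 49070929, plus strand) had 30574, 25487 and 51906 expected counts in replicates 1, 2 and 3. Its TPM were 1156, 779 and 1220 in the same libraries, with a mean of 1052 ± 238 (SD, n = 3). Replicates 1 and 3 lay close together and replicate 2 was the lowest. The read-based table gave 1495, 872 and 1397 TPM (1255 ± 335) and rank 8 among protein-coding genes. The 3 protein-coding genes nearest to Gpnmb in log2(TPM + 1) over the 3 libraries were Zeb2, a transcriptional repressor gene (1067 ± 112 TPM), Ikbke, an innate immune kinase gene (1109 ± 89.1 TPM), and Fth1, the ferritin heavy chain gene (871 ± 173 TPM). Their Euclidean distances from Gpnmb were 0.42, 0.53 and 0.53.

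Among the receptors, Trem2 (ENSMUSG00000023992.14, chromosome 17, 48346401 to 48354147, plus strand) was the highest. It had 1644, 2078 and 3950 expected counts and 36.3, 37.5 and 61.2 TPM in replicates 1, 2 and 3 (45.0 ± 14.1 TPM, rank 1656). Replicate 3 stood above the others, which lay close together. The read-based values were 44.6, 41.1 and 61.3 TPM (49.0 ± 10.8, rank 2131). Nearest to it in level were Rilpl2, which encodes a Rab-binding protein, Hexa, a lysosomal hexosaminidase gene, and Mrc1, which encodes the mannose receptor, at distances of 0.20, 0.22 and 0.24. All 3 of these genes were also highest in replicate 3, with 53.4, 54.2 and 55.8 TPM there, as nearness over the libraries required.

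Tyrobp (ENSMUSG00000030579.10, chromosome 7, 30413760 to 30417585, plus strand), the adaptor, had 128, 114 and 186 expected counts. These came to 27.1, 22.3 and 27.9 TPM in replicates 1, 2 and 3 (25.8 ± 2.98 TPM, rank 2942). Its libraries lay closer together than those of the other 3 detected genes. The read-based table gave 536, 629 and 797 estimated counts and 73.4, 65.1 and 67.6 TPM (68.7 ± 4.26, rank 1409), or 2.67 times the alignment-based mean. Over the 15122 genes that averaged 1 TPM or more, the read-based level was higher by a median of 0.31 on the log2(TPM + 1) scale. The genes nearest to Tyrobp were Arhgdia, the LIM domain gene Fhl3 and the topoisomerase gene Top2b, at distances of 0.056, 0.056 and 0.071 and means of 25.5, 25.7 and 26.1 TPM. By the read-based values these 3 genes had 27.2, 32.9 and 32.4 TPM, so they lay near Tyrobp in the alignment-based table alone.

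Treml2 (ENSMUSG00000071068.7, chromosome 17, 48299498 to 48312533, plus strand) encodes a TREM-like receptor with a cytoplasmic tail of its own. It had 326, 222 and 385 expected counts and 8.61, 4.91 and 5.98 TPM in replicates 1, 2 and 3 (6.50 ± 1.90 TPM). Replicate 1 was the highest library and replicate 2 the lowest. The read-based values were 13.6, 9.22 and 10.6 TPM (11.1 ± 2.22), in the same order of libraries.

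The remaining receptors were at or near the limit of the data. Treml4 (ENSMUSG00000051682.15, chromosome 17, 48264295 to 48275360), known for binding dying cells and for enhancing TLR7 signalling, had 3, 3 and 1 expected counts, or 0.16, 0.22 and 0.03 TPM. Trem1 (ENSMUSG00000042265.13, chromosome 17, 48232768 to 48246924) had 0, 1 and 1 expected counts. A limit of 3 counts, set here for a count of 0, would be worth 0.104 TPM in replicate 1. Trem3 (ENSMUSG00000041754.5, chromosome 17, 48247777 to 48258841), a DAP12 partner in mice, had 0, 0 and 1 expected counts. For Trem3 the limit of 3 counts would be worth 0.307 TPM in replicate 1 and 0.258 TPM in replicate 2. These limits cover counting error only, because reads copied by PCR and not marked with molecular identifiers do not each stand for a molecule.

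The read-based table listed 8, 9 and 12.4 estimated counts for Trem1, or 0.149, 0.132 and 0.138 TPM. The value in replicate 1 lay above the limit given for Trem1, which holds for the alignment-based table alone. For Treml4 it listed 0.211, 0.376 and 0.282 TPM, and for Trem3 it listed 0 in replicates 1 and 2 and 0.0398 TPM in replicate 3. All 3 genes thus stayed below 1 TPM in each library of either table. TREM1 is best known on neutrophils, and the summed read-based TPM of the 10 neutrophil markers was 9.95, 8.93 and 8.69 in replicates 1, 2 and 3, against 1.26, 1.25 and 1.67 in the alignment-based table. Cxcr2 and Mpo had read-based means of 4.61 ± 0.630 and 1.91 ± 0.270 TPM, and Elane and Ltf were at 0 in both tables. The part of other cells in the Trem1 values was not tested.

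In the order of mean levels, the steps between neighbours were compared within each library on the log2(TPM + 1) scale. Gpnmb exceeded Trem2 by 4.96, 4.34 and 4.30 in replicates 1, 2 and 3 (4.53 ± 0.37), and the read-based difference was 4.63 ± 0.35. Tyrobp exceeded Treml2 by 1.55, 1.98 and 2.05 (1.86 ± 0.27), against a read-based difference of 2.53 ± 0.17. Treml2 exceeded Treml4 by 3.05, 2.28 and 2.76 (2.70 ± 0.39). Each of these differences had the same sign in 3 of 3 libraries and was larger than its SD, with a 2-sided exact sign flip p = 0.25, the smallest that 3 libraries allow. No adjustment over the 6 neighbour differences could give a lower p. The order was taken from the same libraries, so these signs and p-values are no test of it.

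The last steps of that order were not beyond the spread between libraries. Treml4 minus Trem3 was 0.15 ± 0.18, positive in 2 of 3 libraries (exact sign flip p = 0.5), and in the read-based table it was 0.35 ± 0.10, positive in 3 of 3 (exact sign flip p = 0.25). Trem3 minus Trem1 was 0.0088 ± 0.056, positive in 1 of 3 libraries (exact sign flip p = 1). The read-based table put Trem1 above Trem3 in 3 of 3 libraries, with a Trem3 minus Trem1 difference of -0.17 ± 0.036 (exact sign flip p = 0.25).

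Receptor and adaptor changed places with the quantification. In the alignment-based table Trem2 exceeded Tyrobp by 0.41, 0.72 and 1.11 in replicates 1, 2 and 3 (0.75 ± 0.35 on the log2(TPM + 1) scale, exact sign flip p = 0.25). In the read-based table the difference was -0.71, -0.65 and -0.14 (-0.50 ± 0.31, exact sign flip p = 0.25), with Trem2 below Tyrobp in 3 of 3 libraries. Which of the pair carried more chromatin RNA per length therefore depended on the table used.

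Restricting the comparison to protein-coding transcripts, an alternative chosen after the data were seen, put Trem2 below Tyrobp in both tables. Tyrobp has no annotated retained intron transcript, so the restriction took far more from Trem2. Coding transcripts held 29.0 and 23.0% of Trem2 TPM in the alignment-based and read-based tables, against 98.6 and 92.0% for Tyrobp. A shift toward Tyrobp thus had to follow, and the read-based gap could only widen, so this is no test of the pair. Alignment-based coding transcripts of Trem2 summed to 9.19, 10.2 and 21.2 TPM in replicates 1, 2 and 3, against 27.1, 22.0 and 27.0 TPM for those of Tyrobp. Every library had the receptor lower, by a mean difference of -0.95 ± 0.57 (exact sign flip p = 0.25). The read-based values of the coding transcripts of Trem2 were 8.87, 8.70 and 17.1 TPM and those of Tyrobp were 69.3, 59.2 and 61.2 TPM, a difference of -2.42 ± 0.56 (exact sign flip p = 0.25). Replicate 3 had the smallest gap between the coding transcripts of both genes in either table.

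**Figure D2:**
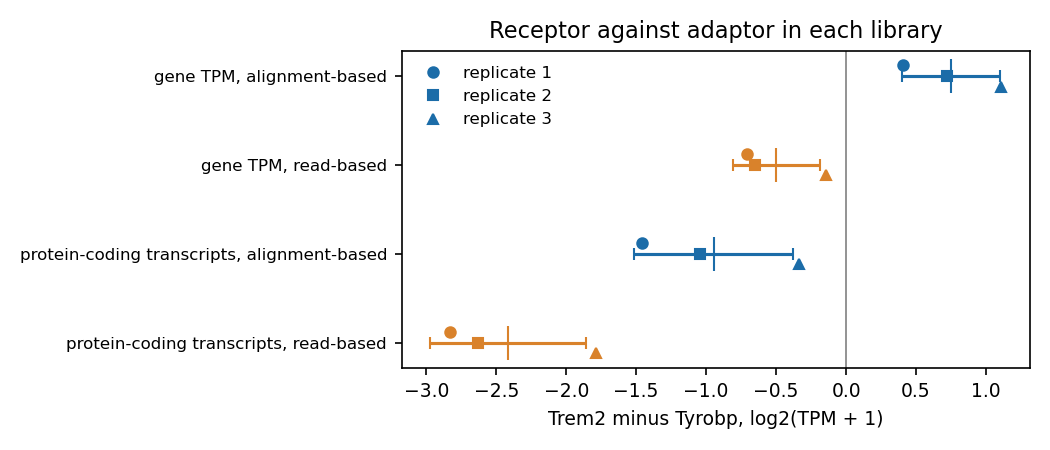
Trem2 minus Tyrobp in each library on the log2(TPM + 1) scale, for whole genes and for protein-coding transcripts alone, in the alignment-based (blue) and read-based (orange) tables; vertical ticks are means and error bars the SD (n = 3). The 3 libraries lie right of 0 for whole genes in the alignment-based table, with a mean of 0.75, and left of 0 in the other measures. Restriction to coding transcripts takes far more from Trem2 than from Tyrobp.

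Most of the Trem2 signal was assigned to a transcript that keeps an intron. Trem2-203, annotated as a retained intron transcript of 4784 nt in 4 exons, contains the whole of intron 1 (1861 nt, 48346596 to 48348456), whose ends are printed above, and runs 1874 nt past the end of the coding transcripts. It had 27.1, 27.4 and 40.0 TPM in replicates 1, 2 and 3, which was 74.6, 72.9 and 65.3% of the TPM of Trem2 (71.0 ± 4.98%). Because it is long, it took 93.0 ± 1.56% of the expected counts of the gene. The read-based table gave it 28.8, 26.7 and 35.2 TPM and 62.3 ± 4.24% of the gene.

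Over the 6584 genes with at least 1 TPM and both coding and retained intron transcripts, the median retained intron share was 46.8% (quartiles of 30.3 and 62.2%). Of these genes, 85.9% had a lower share than Trem2. The read-based median over 7515 genes was 45.4%, and 72.8% had a lower share than Trem2. The share that crosses the printed joins cannot be read from these tables, which give estimates per transcript and no counts per junction. Since Trem2-203 also has a long last exon, its reads need not lie in intron 1.

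Coding Trem2 RNA was divided between Trem2-202, with 7.70, 8.43 and 12.8 TPM in replicates 1, 2 and 3, and Trem2-201, with 1.49, 1.73 and 8.40 TPM. Trem2-201 thus stood apart in replicate 3, the library in which the whole gene was also highest. By the read-based estimate Trem2-201 was listed at 0 in replicates 1 and 2 and at 3.57 TPM in replicate 3. Trem2-204, a processed transcript of 526 nt, was listed at 0 in every library of the alignment-based table but at 6.93, 5.70 and 9.02 TPM in the read-based one.

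**Figure D3:**
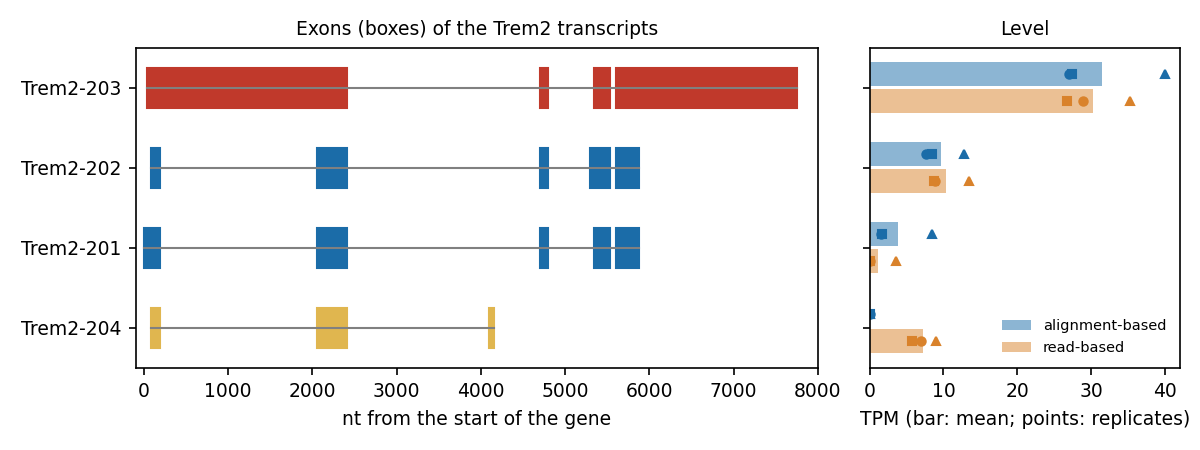
Exons of the 4 annotated Trem2 transcripts as boxes along the gene (nt from its start; red for retained intron, blue for protein coding, yellow for processed transcript), and the TPM of each at the right (bars are means, points replicates 1, 2 and 3). Trem2-203, whose first box fills intron 1 and whose last box runs beyond the others, has the highest level in both tables.

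Gpnmb divided its RNA more evenly. Its 2 protein-coding transcripts had 585, 403 and 647 TPM in replicates 1, 2 and 3, or 51.8 ± 1.19% of the TPM of the gene and 80.2 ± 1.32% of its counts. Its 2 retained intron transcripts had 525, 318 and 470 TPM, or 41.6 ± 3.52% of the TPM and 19.3 ± 1.43% of the counts. That share lay near the median of the 6584 genes, with 41.8% of them lower. Gpnmb-205, a single exon of 1832 nt that runs through the exon 1 boundary shown above into the first 1585 nt of intron 1, had 239, 154 and 243 TPM. Gpnmb-204, of 645 nt, includes 250 nt of intron 6 and had 287, 164 and 227 TPM.

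The tables differed most for the shortest Gpnmb transcript. Gpnmb-202, a nonsense-mediated decay transcript of 365 nt, had 45.7, 59.1 and 103 TPM in the alignment-based table and 413, 199 and 362 TPM in the read-based one. Its share was 6.67 ± 2.39% in the alignment-based and 25.5 ± 2.42% in the read-based table. The coding share of Gpnmb was 40.6 ± 3.29% in the read-based table, and the retained intron share 33.9 ± 1.37%, with 34.3% of the 7515 genes lower.

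Tyrobp has no retained intron transcript in this annotation, and 98.6 ± 1.47% of its TPM was in coding transcripts (92.0 ± 2.13% in the read-based table). Its coding transcripts Tyrobp-201 (564 nt) and Tyrobp-202 (597 nt) were not separated well. Tyrobp-201 held 29.6, 57.1 and 40.1% of the gene in replicates 1, 2 and 3, by the percentages the authors deposited. The authors' bounds for Tyrobp-201 in replicate 1 were 6.95e-05 and 15.9 TPM, beside an estimate of 8 TPM. Such bounds need not hold the estimate. Those of Gpnmb-201 in the same library were 444 and 458 TPM, beside an estimate of 494 TPM. Treml2 had 88.6 ± 6.99% of its TPM in coding transcripts in the alignment-based table but 47.1 ± 2.91% in the read-based one, where Treml2-204, a processed transcript of 770 nt, held 43.4 ± 0.494%. Its level in coding transcripts was closer between the tables, at 5.78 ± 1.81 TPM in the alignment-based and 5.29 ± 1.32 TPM in the read-based table.

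**Figure D4:**
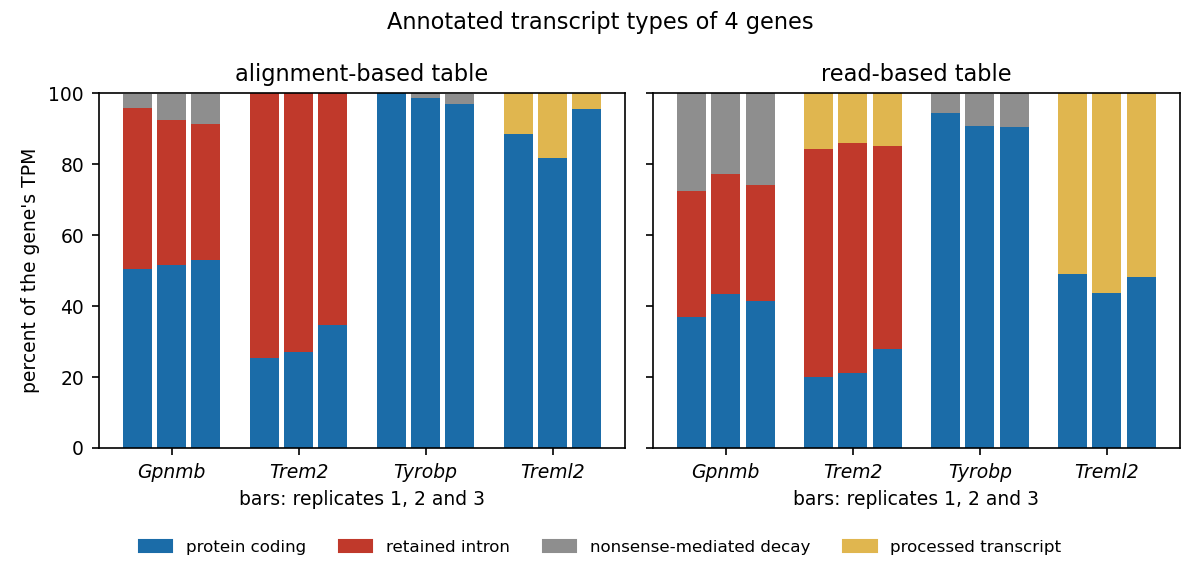
Percent of each gene's TPM in each annotated transcript type for Gpnmb, Trem2, Tyrobp and Treml2, with a stacked bar for each of replicates 1, 2 and 3, in the alignment-based (left) and read-based (right) tables. Retained intron transcripts hold most of Trem2 in every bar, 71.0 ± 4.98% in the alignment-based table, and Tyrobp is almost wholly coding.

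Between libraries, the detected genes did not move as one. On the log2(TPM + 1) scale, Gpnmb in replicates 1, 2 and 3 deviated by 0.25, -0.61 and 0.36 from the mean of the other libraries, and Tyrobp by 0.11, -0.29 and 0.17. Trem2 deviated by -0.39, -0.32 and 0.72, with replicate 3 high. Treml2 deviated by 0.58, -0.47 and -0.11, with replicate 1 high. Over all 15873 detected genes the median deviations were 0.017, -0.033 and 0.016.

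Of the 4 detected genes, 3 were lowest in replicate 2, as were 39.3% of all detected genes, and 1 was lowest in replicate 1, as were 34.9%. Replicate 3 held the highest value of 3 of the 4, against 31.7% of all detected genes, and replicate 1 that of the other, against 39.4%. None was highest in replicate 2 or lowest in replicate 3, as were 28.9 and 25.8% of all detected genes. By the read-based values all 4 were lowest in replicate 2 (36.4% of detected genes), and thus none in replicate 1 (35.8%) or replicate 3 (27.8%). Of these values, 3 were highest in replicate 1 (39.9%), 1 in replicate 3 (28.6%) and none in replicate 2 (31.5%). Replicate 2 was also the library with the least starting RNA, 250 ng, whose part in these values was not tested.

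Over the 3 libraries, Gpnmb, Trem2 and Treml2 varied more than the median detected gene of like count. Their coefficients of variation were 22.6, 31.2 and 29.3%, beside medians of 11.1% (24 genes), 9.44% (934 genes) and 11.9% (2260 genes) among genes whose mean expected count lay within 0.5 of each on the log2(count + 1) scale. Tyrobp, at 11.6%, was below its median of 14.4% (2173 genes). For Trem2 and Gpnmb, 1 library each lay apart from the others. Without replicate 3 the SD of Trem2 on the log2(TPM + 1) scale was 0.035, against 0.41 with it. Without replicate 2 that of Gpnmb was 0.055, against 0.35 with it. Each library left out was the farthest of the 3, so a lower SD had to follow. Among like genes the median SD over all 3 libraries was 0.13 for Trem2 and 0.16 for Gpnmb, which is no measure for the SD of a pair.

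Neighbouring genes differed widely in level along the Trem cluster on chromosome 17. Trem1, Trem3, Treml4 and Treml2 follow each other on the plus strand, and B430306N03Rik, which is Treml6, lies 3608 nt after Treml2 and 19377 nt before Trem2. Treml6 had 38.8, 25.6 and 25.5 TPM in replicates 1, 2 and 3 (29.97 ± 7.66), above Treml2 in all 3 libraries. Beyond Trem2, at 5769 nt, Treml1, which encodes a receptor best known on platelets, had 2.58, 4.61 and 6.23 TPM. Treml1 was lowest in replicate 1 and highest in replicate 3. The summed TPM of the 4 megakaryocyte markers was 4.09 in replicate 1, 7.70 in replicate 2 and 6.10 in replicate 3. These markers did not move together. Pf4 had 1.02, 4.50 and 4.12 TPM in replicates 1, 2 and 3, from 4, 13 and 13 expected counts. In the same libraries Itga2b had 2.00, 2.14 and 0.83 TPM, Gp9 1.07, 0.91 and 1.03 TPM and Ppbp 0, 0.15 and 0.12 TPM. The part of megakaryocytes in the level of Treml1 was not tested.

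Trem5 (9830107B12Rik) had 0 counts in all 3 libraries of the alignment-based table but 4.38 ± 0.610 TPM in the read-based one. A530064D06Rik, before Trem1 on the minus strand, had 2.76 ± 0.617 TPM. AC241601.2, a pseudogene on the opposite strand within Trem1, had 1, 0 and 0 expected counts. No other gene matched a transcript of any of the 7 genes at 95% identity or more over at least 80% of its length. The longest matches were 422 nt at 91.7% identity between Treml2 and A530064D06Rik and 784 nt at 81.8% between Trem1 and Trem5.

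Around the other loci, Hcst, the gene of the adaptor DAP10, ends 127 nt after Tyrobp on the opposite strand. It had 8, 13 and 17 expected counts and 2.84, 4.53 and 4.46 TPM in replicates 1, 2 and 3, far below Tyrobp. The read-based table gave Hcst 19.0 ± 3.29 TPM. Lrfn3, on the other side of Tyrobp, and 4930563H07Rik, before Gpnmb, had 0 counts in all 3 libraries. Gm19253, a processed pseudogene 701 nt after the end of Gpnmb on the same strand, had 79.9, 48.2 and 79.0 TPM, with replicate 2 lowest as for Gpnmb.

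Genes listed for DAP12 and ITAM signalling, which include other adaptor genes such as Hcst, were well represented in chromatin RNA. Of 20 ITAM signalling genes, 19 averaged 1 TPM or more, beside 48.4% of protein-coding genes, and the median of the list was 5.92 ± 0.15 (log2(TPM + 1), SD over 3 libraries), beside a median of 0.78 for all protein-coding genes in each library. The highest were Syk, the kinase that docks on phosphorylated ITAMs, at 267 ± 28.5 TPM, the adaptor gene Lat2 at 264 ± 29.8 TPM and Pik3ap1, a phosphoinositide 3-kinase adaptor gene, at 262 ± 29.6 TPM. Fgr, a SRC family kinase gene, was the lowest at 0.490 ± 0.165 TPM. Each of the top 3 thus had more chromatin RNA per length than Tyrobp or any TREM receptor, although less than Gpnmb.

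Genes listed as inhibitory phosphatases and ITIM receptors were also well represented. All 12 had at least 1 TPM, beside 48.4% of protein-coding genes, with a list median of 5.87 ± 0.09. The read-based medians were 6.93 ± 0.04 for these and 6.56 ± 0.26 for the ITAM signalling genes, and the difference between the lists was not tested. Lilrb4a, an inhibitory immunoglobulin-like receptor gene, had 1820, 976 and 1645 TPM in replicates 1, 2 and 3 (1480 ± 445), above Gpnmb in all 3 libraries. Sirpa, the receptor for CD47, had 795 ± 90.1 TPM and Pirb, a paired inhibitory receptor gene, 441 ± 74.9 TPM. Ptpn11, the phosphatase SHP2, was lowest at 6.81 ± 0.278 TPM.

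Other receptors that pair with DAP12 had a lower median than the ITAM signalling genes. It was 1.90 ± 0.26, beside 0.78 for all protein-coding genes in each library. At least 1 TPM was reached by 9 of 12, beside 48.4% of protein-coding genes. Plxna1, a plexin that signals with TREM2 and DAP12, stood out at 99.0 ± 16.4 TPM, above Trem2. Next came Cd200r4 at 15.0 ± 4.12 TPM and Cd300lb at 9.52 ± 2.27 TPM, and Siglech had the least, 0.177 ± 0.123 TPM. All 12 reached 1 TPM by the read-based values, for which no share over all protein-coding genes was computed.

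Of 10 genes for TREM ligands and the proteases that shed these receptors, 7 had at least 1 TPM, beside 48.4% of protein-coding genes. The list median was 4.44 ± 0.11. Lgals3, the galectin that binds TREM2, had 135 ± 36.4 TPM in the alignment-based and 895 ± 244 TPM in the read-based table. The sheddase gene Adam17 had 54.8 ± 12.4 TPM and the chaperone gene Hspa5 49.2 ± 6.85 TPM. Clu, a lipoprotein ligand of TREM2, had 0, 0 and 1 expected counts.

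All 9 regulators and partners of GPNMB had at least 1 TPM, beside 48.4% of protein-coding genes, with a median of 5.36 ± 0.13. The folliculin partner Fnip2 was the highest at 311 ± 73.1 TPM, followed by Flcn, folliculin itself, at 73.3 ± 13.8 TPM and Fnip1 at 66.4 ± 6.15 TPM. This complex keeps the TFE factors out of the nucleus. Mitf had 51.6 ± 10.5 TPM, Tfe3 40.1 ± 3.68 TPM and Tfeb 26.0 ± 2.59 TPM, against read-based means of 69.9 ± 11.7, 36.9 ± 4.48 and 90.0 ± 12.8 TPM, which put Tfeb highest of these 3. Sdc4, a syndecan that binds GPNMB, was the lowest at 14.1 ± 3.49 TPM.

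Genes that accompany Trem2 in lipid-associated macrophages reached 1 TPM in 19 of 20 cases, beside 48.4% of protein-coding genes. The list median was 4.68 ± 0.62. The protease genes Ctsb and Ctsd had 466 ± 68.8 and 289 ± 7.77 TPM, and the fatty acid binding protein gene Fabp5 169 ± 38.7 TPM. Itgax, which encodes CD11c, was lowest at 0.193 ± 0.15 TPM. The median of this list was 3.97 in replicate 2, against 5.01 in replicate 1 and 5.06 in replicate 3. Replicate 2 had the lowest median in 5 of the 7 lists, some of which share genes. Of all detected genes, taken singly, 39.3% were lowest in that library.

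**Figure D5:**
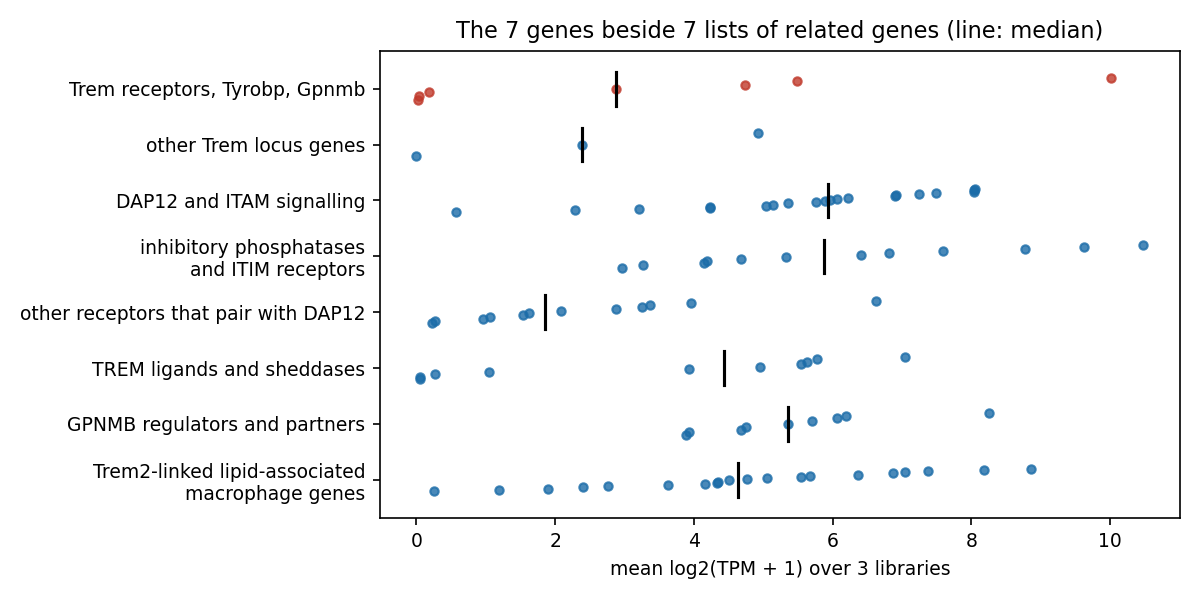
Mean log2(TPM + 1) over the 3 libraries of the 7 genes (red) and of the genes in 7 related lists (blue), alignment-based table; each point is a gene and each black line the median of the points. Gpnmb lies near the right end, and the DAP12 signalling, inhibitory and GPNMB regulator lists have medians above 5.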

How the data were processed

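Total RNA of the chromatin fraction was measured in 3 libraries of 1 group. On mm10 with GENCODE M21, per the deposited README files, the alignment-based tables (per gene and per transcript) hold expected counts and TPM, and the read-based table estimated counts and TPM summed here per gene. In the deposited transcript tables, isoform shares are in percent and the bounds of TPM intervals were handled as a score. The tools, and whether counting used strand, are not given in the sources used here. Reads of genes that overlap in opposite directions may therefore be mixed. Rows of no gene held 1.24, 0.482 and 0.228% of the counts.

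Levels were compared as log2(TPM + 1), a scale that compresses differences between low genes. Gene differences were taken within a library and tested by a 2-sided exact sign flip. Retained intron shares covered genes with at least 1 TPM. Expected counts were rounded for TMM scaling (edgeR 4.0.16) and DESeq2 1.42.0 size factors under R 4.3.3, used for scaling only. Scaling was tested on simulated counts. Python 3.11.15, numpy 2.4.6, pandas 2.3.3, matplotlib 3.10.9 and BLAST 2.17.0 (gene copies) did the rest. The 7 genes and all lists were chosen with earlier results of these data known. Named genes were the 7, the 3 highest and 1 lowest of each list by mean TPM, genes next to or overlapping the 7, and the 3 nearest in level to Gpnmb, Tyrobp and Trem2. Of other genes, Mitf, Tfe3 and Tfeb, and the markers, were named outside this rule, after their values were seen. Of the 4 other Trem locus symbols listed, Ncr2 was not matched to a gene.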

Additional observations from a re-analysis of the deposited data

How the results depend on the processing

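No paired analysis was possible because there is 1 group. Here a value moved beyond the spread between libraries if it shifted by at least the SD over the 3 libraries. Leaving out 1 library cannot shift a mean that far, so those values could not test this. Without each replicate in turn, Trem2 minus Tyrobp ranged from 0.57 to 0.92. The count of 4 genes at 1 TPM or more held under every alternative run. Protein-coding transcripts alone gave -0.95 (alignment-based) and -2.42 (read-based) for Trem2 minus Tyrobp, but that restriction takes far more from Trem2 by annotation. For whole genes, the read-based table reversed Trem2 minus Tyrobp to -0.50. It also gave 2.53 for Tyrobp minus Treml2, 3.22 for Treml2 minus Treml4, 0.35 for Treml4 minus Trem3 and -0.17 for Trem3 minus Trem1, and shares of 62.3% (Trem2 retained intron), 33.9% (Gpnmb retained intron), 92.0% (Tyrobp coding) and 47.1% (Treml2 coding). A pseudocount of 0.1 gave 4.86 for Treml2 minus Treml4 and 0.89 for Treml4 minus Trem3. TPM rescaled without features under 200 nt and 3 ribosomal-like genes gave 3.37 for Treml2 minus Treml4, and raised genes of at least 1 TPM by a median of 0.83 (log2). The deviation of Tyrobp in replicate 3 reversed to -0.0313 in the read-based table, and 46 of 48 deviation values under other scalings, another filter or that table stayed within the spread. Of the single-gene levels 12 of 42 values moved beyond it, and of the list medians 13 of 42. Both sets of 42 include the values without each replicate, which could not move that far. The cause of these shifts was not tested. Depth limits Treml4, Trem1 and Trem3, which had at most 3 expected counts in any library.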

Other observations

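Some of the genes described, or of genes near them, had much higher levels in the read-based than in the alignment-based table. Hcst had 19.0 ± 3.29 TPM in the read-based and 3.94 ± 0.956 TPM in the alignment-based table, Tyrobp 68.7 ± 4.26 and 25.8 ± 2.98 TPM, and Gm19253 133 ± 18.5 and 69.1 ± 18.0 TPM (SD, n = 3). For Trem2 the values were 49.0 ± 10.8 and 45.0 ± 14.1 TPM. Genes of the lists went either way, with 895 ± 244 and 135 ± 36.4 TPM for Lgals3 but 132 ± 32.2 and 169 ± 38.7 TPM for Fabp5. These genes were picked after their values were seen, and no test was made.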
